A study of Mus musculus with 768 samples.

Results

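The genes described here handle retinoids, the vitamin A family of signaling molecules. They comprise Stra6, Rbp4, Crabp1, Crabp2, Aldh1a1, Aldh1a2, Aldh1a3, Cyp26b1 and Rarb, and were chosen by symbol, 9 of the 24490 endogenous genes in the deposited tables. All 9 were found. They were described across single stromal cells of mammary tumors from FVB/N-Tg(MMTVPyVT)634Mul/J mice, in which the mouse mammary tumor virus promoter drives the polyoma virus middle T oncogene mainly in mammary epithelium. Cells of 2 carcinomas at 14 weeks of age had been sorted as live and negative for EpCAM, CD45, CD31 and NG2. The sort was meant to leave out epithelial, immune and endothelial cells and pericytes. The study still detected modest levels of the NG2 transcript in its vascular and cycling populations. It also reports that its vascular cells share marker genes with pericytes, at rather low levels. From each tumor 1 plate of wells, 768 wells in all, was sequenced by Smart-seq2. There was no normal tissue and no treatment, so the comparison the design allows is between the kinds of cancer-associated fibroblast (CAF) in the same tumors. The sources used here do not say whether both tumors came from the same mouse, and since each tumor was 1 plate, tumor and plate cannot be told apart.

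Retinol travels in blood bound to the carrier Rbp4 and can enter cells through the membrane receptor Stra6. Inside the cell it is oxidized to retinal and then, by the retinaldehyde dehydrogenases Aldh1a1, Aldh1a2 and Aldh1a3, to retinoic acid, which is bound in the cytoplasm by Crabp1 and Crabp2, brought by Crabp2 to nuclear receptors such as Rarb, and cleared by the hydroxylase Cyp26b1. Fibroblasts of many organs are known to make and break down retinoic acid, and retinoic acid shapes the growth and matrix of connective tissue.

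Wells were kept when they held at least 10000 reads outside the ERCC spike-ins, which left 727 of 768 wells, with 10281 to 1190516 reads. Each well was put in a class by whichever of Rgs5, Dcn and Trf was highest in log2(RPKM + 1), where RPKM is the read count scaled to the length of the gene model and the depth of the well; that level had to be at least 5 and at least 2 above the next of the 3. This gave 503 Rgs5-high wells (71.05% and 67.2% of the wells of tumors 1 and 2), 82 and 75 Dcn-high wells and 7 and 20 Trf-high wells, and left 40 wells without a class. Of the wells, 30 lay within 1 of the margin. The markers listed for each class were read as a check of the gate, whose own 3 genes are among them and were fixed by it. All 10 vascular markers, with Rgs5, Notch3 and Des among them, had their highest mean in Rgs5-high wells, all 10 matrix markers, with Dcn, Lum and Pdgfra, in Dcn-high wells, and all 8 markers listed for the developmental class, with Trf, Sox10 and Scrg1, in Trf-high wells. The Trf-high wells also had the highest mean of all 10 luminal epithelial markers, although the sort had removed EpCAM-positive cells: their summed RPKM ranged from 0 to 60859 (median 1080), against 0 to 3723 (median 22.98) in Dcn-high and 0 to 4023 (median 18.5) in Rgs5-high wells. Epcam itself had a read in 8 of the 27 Trf-high wells, and none of the 10 luminal markers was at 0 in all of them. Median depth was 202729 and 192041 reads in the Rgs5-high wells of tumors 1 and 2, 283133 and 226954 in Dcn-high wells and 263513 and 169026 in Trf-high wells.

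Crabp1, Aldh1a2 and Stra6 were higher in Dcn-high than in Rgs5-high and Trf-high cells in both tumors and passed the test. The other 6 members did not pass it. Of these, Rbp4, Aldh1a1, Aldh1a3, Crabp2 and Cyp26b1 had higher summed levels in Dcn-high than in Rgs5-high cells of both tumors, and Rarb had lower ones. In the fit described next, the log2 fold change was positive for 8 of the 9 members and for 5591 of the 11715 genes tested. How many of all genes were higher in both tumors was not computed. Counts were summed per class and tumor and the 6 libraries compared in 1 quasi-likelihood fit of edgeR, with p adjusted by Benjamini-Hochberg over the 11715 genes whose mean RPKM reached 1 and a threshold of 0.05. Cells are not replicates, so n is 2 tumors in every class, and p-values measure the spread between these 2 tumors. In Dcn-high against Rgs5-high cells 3 of the 9 members were called, all higher, where 5.88% of all genes tested were called, 3.81% of all as higher; with the tumor as a block the same 3 were called, against 3.00% of all genes. At an adjusted p under 0.001, the threshold of the study, edgeR called 0 members in each of the 3 comparisons between classes, where it called 0.00%, 0.213% and 0.00% of all genes in Dcn-high against Rgs5-high, Trf-high against Rgs5-high and Trf-high against Dcn-high cells. The study used that threshold in another test, over single cells and with each population against the others pooled. Its calls and these counts are therefore not comparable. DESeq2 at 0.05 called 6, 3 and 6 members, where it called 14.9%, 26.2% and 25.4% of all genes. The median log2 fold change was 5.76 over the members and -0.04 over all genes. All 9 passed the filter, but Crabp2, Rbp4, Aldh1a2, Aldh1a3 and Stra6 had a mean RPKM under 1 in Rgs5-high cells and so passed through the other wells, and the count and median are a description only.

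**Figure D1:**
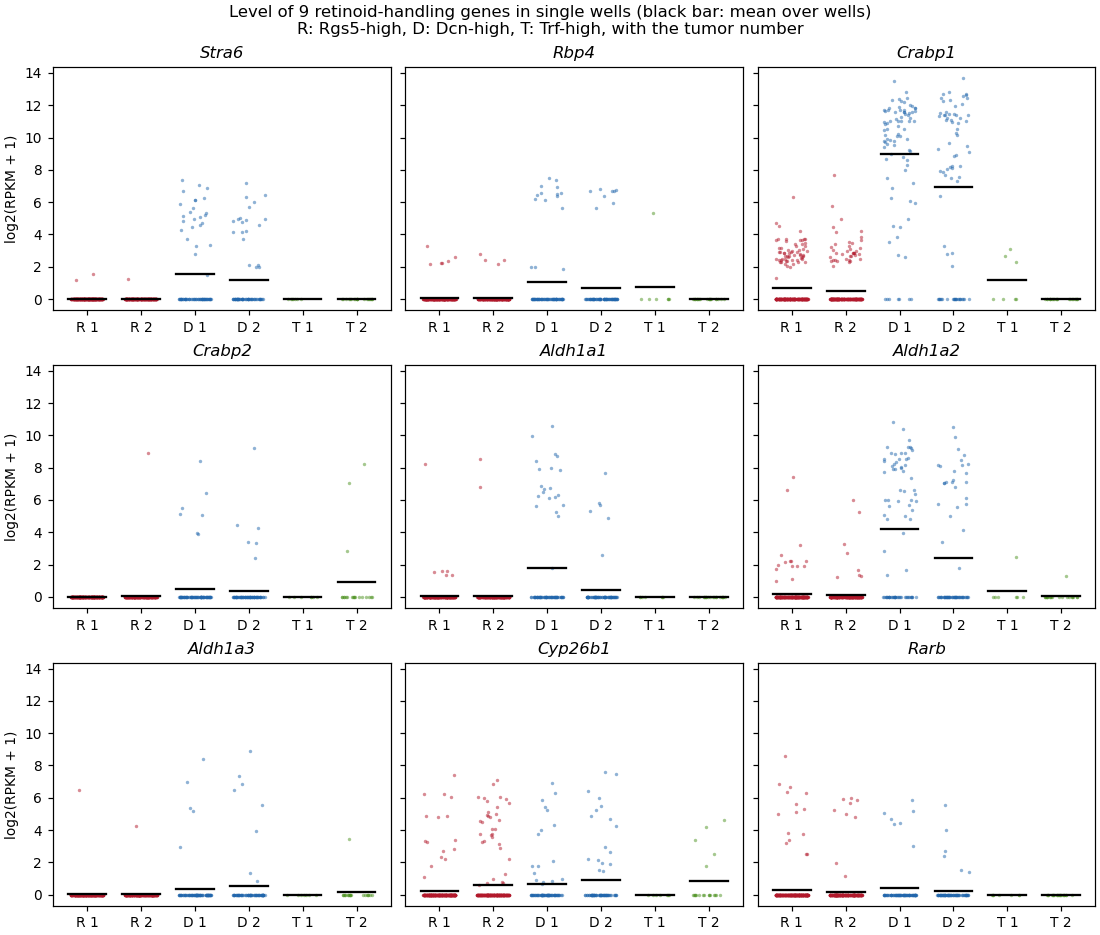
Level of each member in single wells, log2(RPKM + 1) on the vertical axis, by class (R, Rgs5-high; D, Dcn-high; T, Trf-high) and tumor (1 or 2); each point is 1 well and the black bar is the mean over wells. Crabp1 fills most Dcn-high wells of both tumors, Aldh1a2 fills 48 and 26 of them, and most wells of every other panel lie at 0.

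The regulatory sequence of the members that were called is shown first, together with that of Rarb, whose promoter is a textbook target of retinoic acid receptors. RefSeq promoters of GRCm38.p6, the assembly of the mm10 build used by the authors, were given for 7 members, which have 12 start sites between them. Crabp2 and Aldh1a3 have none in that table. Stra6 has 4 start sites, and none is printed here. The 250 bases upstream of the start site of Crabp1 (chr9:54764498-54764747, plus strand), Aldh1a2 (chr9:71215539-71215788, plus strand) and Rarb (chr14:16575477-16575726, minus strand, a start site inside the gene) read, 5′ to 3′, with capitals for a pair of receptor hexamers 5 bases apart:
Crabp1: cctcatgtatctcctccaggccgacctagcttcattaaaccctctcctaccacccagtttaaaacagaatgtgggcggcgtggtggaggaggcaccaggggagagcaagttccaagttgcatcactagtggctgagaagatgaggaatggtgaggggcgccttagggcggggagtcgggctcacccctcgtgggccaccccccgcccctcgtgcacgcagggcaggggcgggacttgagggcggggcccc
Aldh1a2: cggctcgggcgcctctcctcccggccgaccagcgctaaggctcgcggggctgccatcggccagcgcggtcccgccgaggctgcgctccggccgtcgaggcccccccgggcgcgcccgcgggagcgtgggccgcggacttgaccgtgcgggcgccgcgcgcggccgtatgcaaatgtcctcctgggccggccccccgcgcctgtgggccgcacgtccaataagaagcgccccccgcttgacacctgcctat
Rarb: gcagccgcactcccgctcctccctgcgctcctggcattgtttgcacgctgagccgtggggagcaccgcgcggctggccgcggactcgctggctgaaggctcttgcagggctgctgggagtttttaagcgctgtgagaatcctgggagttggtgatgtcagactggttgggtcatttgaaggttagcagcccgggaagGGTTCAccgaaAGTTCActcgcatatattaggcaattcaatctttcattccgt
Promoters of 300 bases, from 250 before to 50 after the start site, were searched on both strands. The repeat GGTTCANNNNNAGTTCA was found in 1 of the 12, that of Rarb, beginning 53 bases before the start site, and in 0.00609% of all 32851 promoters in the table. The repeat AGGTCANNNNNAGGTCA was in 0 of the 12 and in 0.00913% of all. The single hexamer AGTTCA was in the Rarb promoter, where it closes that repeat, and in 1 promoter of Stra6, against 14.0% of all promoters, and AGGTCA was in 0 of the 12, against 16.3%. No match says only that these letters are not in this window.

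Uptake and transport. Stra6 (chromosome 9, 58063793 to 58154004) was read in 25 of 82 and 20 of 75 Dcn-high wells of tumors 1 and 2, which is 30.5% (exact binomial 95% interval 20.8 to 41.6) and 26.7% (17.1 to 38.1). In Rgs5-high wells it was read in 2 and 1 wells (0.755% and 0.420%), with a single read in each of the 3, and in Trf-high wells in 0 of 7 and 0 of 20, with exact binomial upper limits of 40.96% and 16.8% (3 counts would be 42.9% and 15%). Summed over wells, this was 56.8 and 34.3 CPM, counts scaled to a common library size, in Dcn-high, 0.036 and 0.021 CPM in Rgs5-high, and 0 reads in Trf-high cells. The Dcn-high libraries of both tumors therefore lay above all others. The difference between Dcn-high and Rgs5-high cells passed the test, with an adjusted p of 0.0086 (edgeR, Benjamini-Hochberg). With 3 reads on the lower side, the ratio was 1613 with a counting interval of 551 to 7829. Against Trf-high cells Stra6 was at least 85.7-fold higher in Dcn-high cells, taking 3 reads over the class as the limit of a count of 0 (at least 34.4-fold and 41.8-fold in tumors 1 and 2 taken alone, with 3 reads per library), with an adjusted p of 0.0094 in the same test.

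Rbp4 (chromosome 19, 38116620 to 38125321), the carrier that Stra6 binds, was read in fewer cells. Reads were found in 15 of 82 and 8 of 75 Dcn-high wells, in 6 and 4 Rgs5-high wells (2.26% and 1.68%), and in 1 of 7 and 0 of 20 Trf-high wells. Summed over wells, Rbp4 stood at 13.8 and 10.7 CPM in Dcn-high, 0.127 and 0.084 CPM in Rgs5-high and 5.51 and 0 CPM in Trf-high cells, so that both Dcn-high libraries lay above the rest. Of the 10 Rgs5-high wells with Rbp4, 9 held a single read, while in Dcn-high wells the median well with a read had an RPKM of 85.7 and 100.3 in tumors 1 and 2. The log2 fold change between Dcn-high and Rgs5-high cells was 7.09 (SE 1.89), and it was not called in edgeR, with a Benjamini-Hochberg adjusted p of 0.11.

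Cytoplasmic binding. Crabp1 (chromosome 9, 54764748 to 54773110) was by far the most abundant member in Dcn-high cells. It was read in 75 of 82 Dcn-high wells of tumor 1 (91.5%, interval 83.2 to 96.5) and 53 of 75 of tumor 2 (70.7%, 59.02 to 80.6), and reached an RPKM of 11779 and 12954 in single wells. The summed level was 1758 and 1364 CPM in Dcn-high, 1.45 and 1.02 CPM in Rgs5-high and 1.65 and 0 CPM in Trf-high cells. Both Dcn-high libraries were far above the other 4. The log2 fold change of Dcn-high over Rgs5-high cells was 10.59 (SE 0.82; edgeR, Benjamini-Hochberg adjusted p = 0.0041). Over Trf-high cells, which held 3 reads in all, the ratio was 2892 with a counting interval of 989 to 14022 (edgeR, Benjamini-Hochberg adjusted p = 0.0029). All 3 reads were in tumor 1, where the ratio was 1064 (363.98 to 5159), and in tumor 2 Crabp1 was at least 1662-fold higher in Dcn-high cells, with 3 reads as the limit.

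Crabp1 was not uniform among Dcn-high cells. In tumor 1, 7 wells had no read of it, and in tumor 2, 22 wells. The wells without it were shallower, with medians of 178362 and 206547 reads against 289809 and 231285 in wells with it, and the part of depth in this was not tested. Thinning wells to 50000 reads, which leaves out the 5 and 4 shallower ones, gave shares of 90.9% and 69.01% in tumors 1 and 2; with 1 plate each, the difference between the tumors was not tested. In Rgs5-high cells Crabp1 was read in 61 and 39 wells (23.02% and 16.4%), yet 89 of these 100 wells held 1 read, and after thinning, which leaves out 9 and 15 shallower wells, the shares were 7.42% and 4.04%. Only 2 Rgs5-high wells, 1 per tumor, held at least 5 reads, against 69 and 49 Dcn-high wells.

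Crabp2 (chromosome 3, 87948693 to 87953372), the paralog that brings retinoic acid to the nucleus, did not share this pattern. It was read in 7 of 82 and 6 of 75 Dcn-high wells, in 0 and 1 Rgs5-high wells (0% and 0.420%), and in 0 of 7 and 3 of 20 Trf-high wells. Its sums were 4.10 and 5.86 CPM in Dcn-high, 0 and 0.835 CPM in Rgs5-high and 0 and 5.47 CPM in Trf-high cells. The Trf-high library of tumor 2 thus lay between the 2 Dcn-high libraries, and a single Rgs5-high well held all 40 reads of that class. Another well held 84.3% of the Dcn-high reads of tumor 2, and the reads of the others came to 0.919 CPM, below the Trf-high library of that tumor. The log2 fold change of Dcn-high over Rgs5-high cells was 3.86 (SE 2.25; edgeR, Benjamini-Hochberg adjusted p = 0.51). In tumor 2 alone it was 3.08, and in tumor 1, with 0 reads in Rgs5-high cells, Crabp2 was at least 75.4-fold higher in Dcn-high cells, with 3 reads as the limit.

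**Figure D2:**
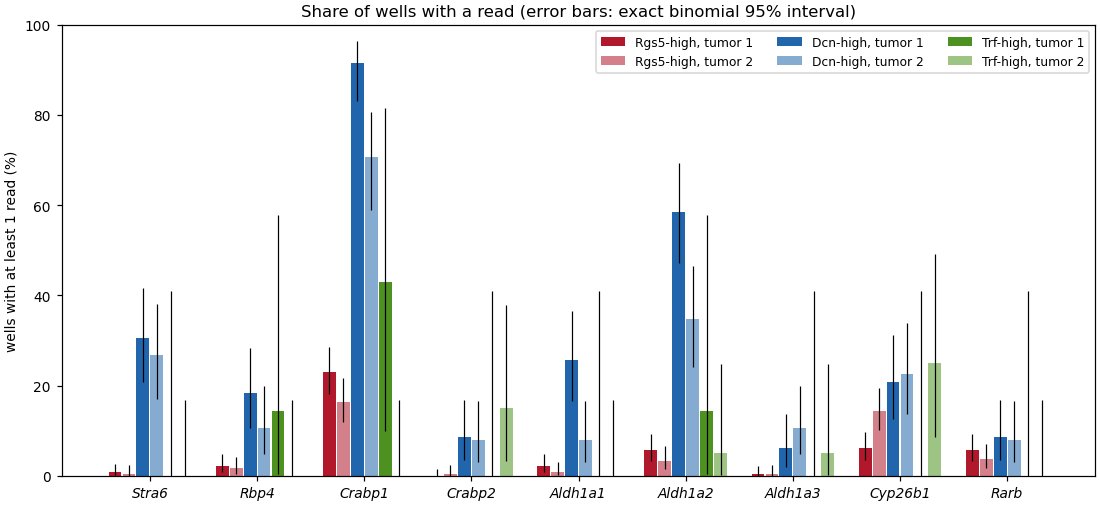
Percentage of wells with at least 1 read of each member, by class and tumor; error bars are exact binomial 95% intervals, which cover counting error only, and bars of 0 show only the interval. Crabp1 reaches 91.5% and 70.7% of Dcn-high wells, Aldh1a2 58.5% and 34.7%, and Stra6 30.5% and 26.7%, while the intervals of the Trf-high wells are wide, with 7 and 20 wells.

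Synthesis of retinoic acid. Aldh1a2 (chromosome 9, 71215789 to 71296243), the main retinoic acid-forming enzyme of embryonic mesenchyme, was the dehydrogenase read most often. It was found in 48 of 82 and 26 of 75 Dcn-high wells (58.5%, interval 47.1 to 69.3, and 34.7%, 24.04 to 46.5), in 15 and 8 Rgs5-high wells (5.66% and 3.36%) and in 1 of 7 and 1 of 20 Trf-high wells. The summed level was 499.6 and 231.6 CPM in Dcn-high, 3.96 and 1.69 CPM in Rgs5-high and 1.10 and 0.274 CPM in Trf-high cells, without overlap between the Dcn-high libraries and the others. The log2 fold change of Dcn-high over Rgs5-high cells was 7.31 (SE 0.75; edgeR, Benjamini-Hochberg adjusted p = 0.008). Trf-high cells held 3 reads, and the ratio of Dcn-high to Trf-high cells was 697 with a counting interval of 238.6 to 3383 (edgeR, Benjamini-Hochberg adjusted p = 0.0045); it was 453 (125.5 to 3745) in tumor 1 and 847 (151.9 to 33445) in tumor 2 taken alone.

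Aldh1a1 (chromosome 19, 20492583 to 20643463), which also oxidizes retinal, differed more between the tumors. It was read in 21 of 82 Dcn-high wells of tumor 1 and 6 of 75 of tumor 2 (25.6%, interval 16.6 to 36.4, and 8.0%, 2.99 to 16.6). The summed level was 140.5 CPM in Dcn-high cells of tumor 1 but 10.2 CPM in tumor 2, beside 3.58 and 2.86 CPM in Rgs5-high cells and 0 reads in Trf-high cells. In Rgs5-high cells it was read in 6 and 2 wells (2.26% and 0.840%), where a single well held 97.5% of the reads of tumor 1 and another 61.3% of those of tumor 2; the reads of the others came to 0.091 and 1.11 CPM. Although both Dcn-high libraries were the highest, the log2 fold change of 4.86 (SE 1.39) over Rgs5-high cells was not called (edgeR, Benjamini-Hochberg adjusted p = 0.16), and was 5.60 in tumor 1 and 2.11 in tumor 2 taken alone. Against Trf-high cells it was at least 152.4-fold higher in Dcn-high cells (at least 85.05-fold in tumor 1 and 12.4-fold in tumor 2 taken alone, with 3 reads per library as the limit), also not called, with an adjusted p of 0.053 by edgeR with Benjamini-Hochberg adjustment. The nearly identical Aldh1a7 held 7 reads in 2 wells.

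Aldh1a3 (chromosome 7, 66390892 to 66427477) was rare, with reads in 5 of 82 and 8 of 75 Dcn-high wells, 1 and 1 Rgs5-high wells (0.377% and 0.420%), and 0 of 7 and 1 of 20 Trf-high wells. Over all wells the sums were 26.6 and 29.1 CPM in Dcn-high, 1.03 and 0.209 CPM in Rgs5-high and 0 and 1.64 CPM in Trf-high cells. A single well held 45.9% of the Dcn-high reads of tumor 1 and another 53.8% of those of tumor 2. Dcn-high cells exceeded Rgs5-high cells by a log2 fold change of 5.76 (SE 1.34; edgeR, Benjamini-Hochberg adjusted p = 0.076), which missed the threshold, and by 4.99 in tumor 1 and 7.36 in tumor 2 taken alone.

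Counting at least 5 reads, 1 or more of the 3 dehydrogenases was present in 50 of 82 Dcn-high wells of tumor 1 and 33 of 75 of tumor 2. In tumor 1, 18 wells held at least 2 of them, and in tumor 2, 2 wells. Aldh1a1 and Aldh1a2 were found together in tumor 1, where 19 of the 21 wells with a read of Aldh1a1 also had Aldh1a2, against 29 of the 61 without; in tumor 2 this was 2 of 6 against 24 of 69. The pattern of tumor 1 was thus not seen in tumor 2, and with 1 plate each the difference was not tested.

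**Figure D3:**
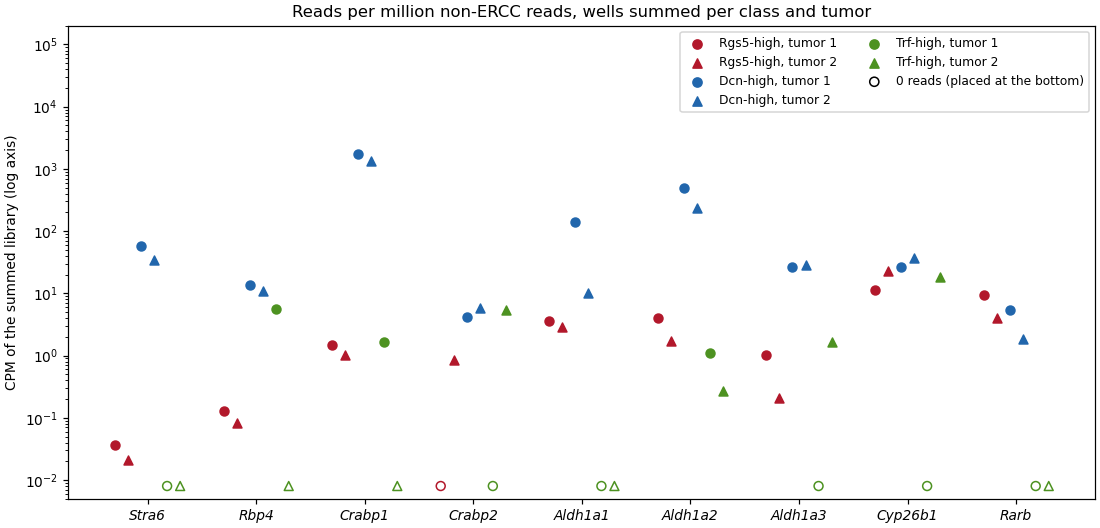
CPM of each member, with the reads outside the spike-ins as the total, on a log axis, in the 6 summed libraries (circles, tumor 1; triangles, tumor 2); open symbols at the bottom are libraries with 0 reads. Both Dcn-high libraries lie above all others for Stra6, Rbp4, Crabp1, Aldh1a1, Aldh1a2 and Aldh1a3, and by a small margin for Cyp26b1, while Crabp2 and Rarb overlap between classes. The share of all genes with both Dcn-high libraries above all others was not computed.

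Breakdown and receptor. Cyp26b1 (chromosome 6, 84571414 to 84593908), which clears retinoic acid, was spread over the classes. It was read in 17 of 82 and 17 of 75 Dcn-high wells (20.7% and 22.7%), in 16 and 34 Rgs5-high wells (6.04% and 14.3%), and in 0 of 7 and 5 of 20 Trf-high wells. The summed level was 26.6 and 37.6 CPM in Dcn-high, 11.5 and 23.3 CPM in Rgs5-high and 0 and 18.6 CPM in Trf-high cells. Both Dcn-high values were the highest, but the Rgs5-high library of tumor 2 lay close below that of Dcn-high cells of tumor 1. Without the reads of the well with most of them in each library, the latter stood at 19.1 CPM and the former at 20.6 CPM, so that this order rests on 1 well. Between these classes the log2 fold change was 1.18 (SE 1.37; edgeR, Benjamini-Hochberg adjusted p = 0.83).

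Rarb (chromosome 14, 16430839 to 17082331), the receptor whose own promoter carries the repeat shown above, was not called by edgeR in any of the 3 comparisons. It was read in 7 of 82 and 6 of 75 Dcn-high wells (8.54% and 8.0%), 15 and 9 Rgs5-high wells (5.66% and 3.78%) and none of the Trf-high wells. The summed level was 5.44 and 1.84 CPM in Dcn-high and 9.24 and 3.95 CPM in Rgs5-high cells, so the classes overlapped and the value of Rgs5-high cells was the higher one within each tumor. By share of wells with a read and by the mean of log2(RPKM + 1) over wells the order was the other one in both tumors, with means of 0.40 and 0.23 in Dcn-high against 0.28 and 0.17 in Rgs5-high wells. At 5 reads or more the share in tumor 2 was 2.67% in Dcn-high against 2.94% in Rgs5-high wells, so the order by share turned there. The log2 fold change of Dcn-high over Rgs5-high cells was -0.55 (SE 0.99; edgeR, Benjamini-Hochberg adjusted p = 0.92), and took a positive sign, 0.15, with the spike-in totals as library sizes. In Trf-high cells 0 reads were found, and Rarb was at least 12.4-fold higher in Rgs5-high cells (at least 5.59-fold and 4.81-fold in tumors 1 and 2 taken alone), not called, with an adjusted p of 0.059 (edgeR, Benjamini-Hochberg).

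Between Trf-high and Rgs5-high cells 0 of the 9 members were called by edgeR, where 12.8% of all genes were (8.21% with the tumor as a block); at an unadjusted p under 0.05 there were 2, 1 in each direction, and, as given above, DESeq2 called 3. With the tumor as a block, Aldh1a2 was called as lower in Trf-high cells (edgeR, Benjamini-Hochberg adjusted p = 0.041, against 0.19 without the block). Between Trf-high and Dcn-high cells, Crabp1, Aldh1a2 and Stra6 were called, all lower in Trf-high cells, where 11.5% of all genes were called (7.10% with the tumor as a block) and 8.07% as lower. The median log2 fold change of Trf-high over Dcn-high cells was -5.29 over the members, with genes of 0 reads at their bound, and -0.12 over all genes. Crabp1, Aldh1a1, Aldh1a2, Aldh1a3, Rarb and Stra6 had a mean RPKM under 1 in Trf-high cells and passed the filter through the other wells, so this count and median are a description as well. These comparisons share libraries with the one above and are no separate support. The 3 calls against Dcn-high cells held without the wells with a read of Epcam, 8 of 27 Trf-high wells among them. Other luminal markers were read in more of the 27, with Csn3 in 19 and Cldn3 in 16. Leaving out Epcam wells therefore does not remove all wells with luminal markers. The part of the luminal markers in these calls and in the other values was not tested.

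On the scale of length-corrected levels, the mean of log2(RPKM + 1) over Dcn-high wells was 7.97 ± 1.45 (SD, n = 2 tumors) for Crabp1, then 3.32 ± 1.26 for Aldh1a2 and 1.37 ± 0.24 for Stra6. Aldh1a1 (1.10 ± 0.95), Rbp4 (0.86 ± 0.25) and Cyp26b1 (0.78 ± 0.19) followed, and from Stra6 to Cyp26b1 no neighbors in the order differed by more than the larger SD of the pair, while Crabp1, Aldh1a2 and Stra6 were apart from each other beyond it, and so was Cyp26b1 from the next gene. Aldh1a3 (0.45 ± 0.14), Crabp2 (0.41 ± 0.08) and Rarb (0.32 ± 0.12) came last and did not differ from their neighbors among the 3 beyond that SD. In Rgs5-high wells the order was another one, with Crabp1 at 0.60 ± 0.11, Cyp26b1 at 0.41 ± 0.24 and Rarb at 0.23 ± 0.08, neighbors not apart beyond the SD, and Stra6 last at 0.01 ± 0.004. In Trf-high wells no neighbors differed beyond the SD, and the highest level, 0.58 ± 0.82 of Crabp1, came from 3 wells of tumor 1 with 1 read each. These orders depend on the scale: by mean RPKM over wells, Crabp1 (2.13) followed Cyp26b1 (2.98) and Rarb (2.56) in Rgs5-high wells, and in Trf-high wells Crabp2 (15.9), Cyp26b1 (2.15) and Rbp4 (1.45) lay above Crabp1 (0.625).

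Many Dcn-high wells held more than 1 member. With at least 5 reads counted, at least 2 members were present in 58 of 82 wells (70.7%) of tumor 1 and 40 of 75 (53.3%) of tumor 2, at least 3 in 39 and 18 wells, and none in 5 and 15 wells. In Rgs5-high wells at least 2 were present in 1 and 3 wells. Of the Dcn-high wells with Stra6, 25 of 25 and 19 of 20 also had Crabp1, against 50 of 57 and 34 of 55 of those without. Of the wells with Aldh1a2, 47 of 48 and 24 of 26 had Crabp1, against 28 of 34 and 29 of 49 without. Over all 36 pairs of members, in 18 one member was read in a larger share of the wells with the other than of those without in both tumors, in 7 in a smaller share in both, and in 11 neither held. Among the former, Crabp1 was read in 7 of 7 and 6 of 6 wells with Rarb, against 68 of 75 and 47 of 69 without. Among the latter, Aldh1a1 was read in 1 of 15 and 0 of 8 wells with Rbp4, against 20 of 67 and 6 of 67 without, and Crabp1 in 4 of 5 and 5 of 8 wells with Aldh1a3, against 71 of 77 and 48 of 67 without. Wells with Stra6 or Aldh1a2 were also deeper, with medians of 327814 and 296330 reads for Stra6 and 301692 and 243985 for Aldh1a2, against 262024 and 214139, and 225972 and 217838, in wells without. The part of depth in these shares was not tested.

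**Figure D4:**
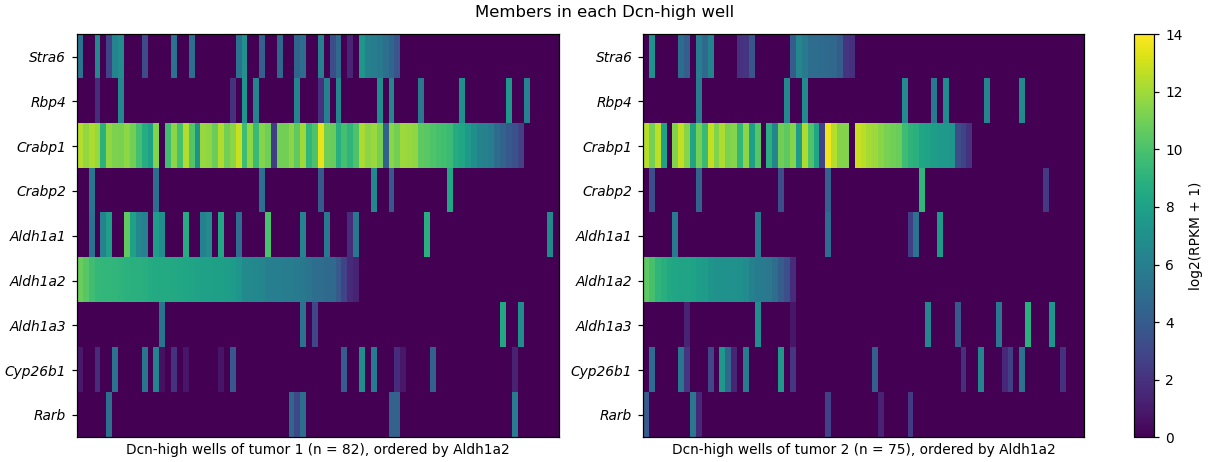
Level of the 9 members, log2(RPKM + 1) by color, in each of the 82 and 75 Dcn-high wells of tumors 1 and 2, 1 column per well, ordered by Aldh1a2 and then Stra6 and Crabp1. Crabp1 runs through nearly all wells with Aldh1a2 (47 of 48 and 24 of 26) and on into wells without it, and Cyp26b1 and Rarb are scattered.

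Across Dcn-high wells the level of Crabp1 went with that of Aldh1a2 (Pearson r 0.44 and 0.40 over 82 and 75 wells of tumors 1 and 2) and of Stra6 (r 0.35 and 0.37). It was -0.26 and -0.18 for Crabp1 with Aldh1a3, and between 0.003 and 0.20 for Crabp1 with the other 5 members. Of all 36 pairs of members, 2 had an r of at least 0.3 in both tumors, and 11 had a negative r in both. Wells of a tumor share a plate, and Crabp1 itself had an r of 0.33 and 0.16 with log10 depth, so these values are descriptions. The genes most like Crabp1 over all 727 wells were Pdgfra, a growth factor receptor of fibroblasts (r 0.84 and 0.79), Svep1, an extracellular matrix protein (0.85 and 0.77), and Lrrc15, a membrane protein of activated fibroblasts (0.86 and 0.75). Within Dcn-high wells they were Lrrc15 (0.58 and 0.58), Bicc1 (0.53 and 0.54) and Ociad2 (0.51 and 0.59). For Aldh1a2 the most similar gene was Crabp1, over all wells (0.68 and 0.55) and within Dcn-high wells, where Ociad2 and Wnt5a, a secreted signaling ligand, followed (0.35 and 0.39, and 0.34 and 0.37). Over all wells Lrrc15 (0.65 and 0.53) and Mdk, a secreted growth factor (0.52 and 0.54), came next. Stra6 was most like Fcgr2b, an inhibitory Fc receptor (0.62 and 0.52), Crabp1 (0.54 and 0.51) and Pdgfra (0.49 and 0.49) over all wells, and like Prokr2, Fcgr2b and Crabp1 within Dcn-high wells (0.40 and 0.60, 0.48 and 0.40, and 0.35 and 0.37). For each of the other 6 members the highest r within Dcn-high wells, taking the lower of the tumors, was between 0.26 and 0.36, weak values in sparse counts.

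The rest of the pathway was taken from a list of 42 further genes, of which 39 were in the tables and 26 passed the filter. Dcn-high against Rgs5-high cells differed in 2 of the 26, both higher, where 5.88% of all genes were called and 3.81% as higher. Cyp26a1 and Rdh12 had a mean RPKM under 1 in Rgs5-high cells and passed the filter through the other wells, as Adh7 and Meis2 did with a mean under 1 in Trf-high cells, so the counts over this list are a description only. The 2 genes were Cyp26a1, the other main hydroxylase that clears retinoic acid, at 11.6 and 13.9 CPM in Dcn-high against 0.073 and 0.021 CPM in Rgs5-high cells (log2 fold change 8.21, SE 1.39), and Rdh10, which oxidizes retinol to retinal, at 156.3 and 135.7 against 35.2 and 48.9 CPM (2.09, SE 0.40). In edgeR with Benjamini-Hochberg adjustment the adjusted p was 0.032 and 0.045. With the tumor as a block it was 0.056 for Cyp26a1 and 0.071 for Rdh10, so that 0 of the 2 stayed called, where 3.00% of all genes were. Of the receptors, 0 of 5 tested were called, and of the 6 genes known to respond to retinoic acid, 0 were called. Among these, Rarres1, named after its values were seen, was at 82.2 and 56.5 CPM in Dcn-high against 3.18 and 1.48 CPM in Rgs5-high cells (log2 fold change 5.19, SE 1.09), with an adjusted p of 0.057 in edgeR (Benjamini-Hochberg). The dehydrogenase Rdh5, likewise named afterwards, went the other way, at 7.58 and 5.80 against 80.2 and 68.4 CPM. Its log2 fold change was -3.17 (SE 1.02), with an adjusted p of 0.17 in the same test. The median log2 fold change over the 26 genes was 0.18.

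**Figure D5:**
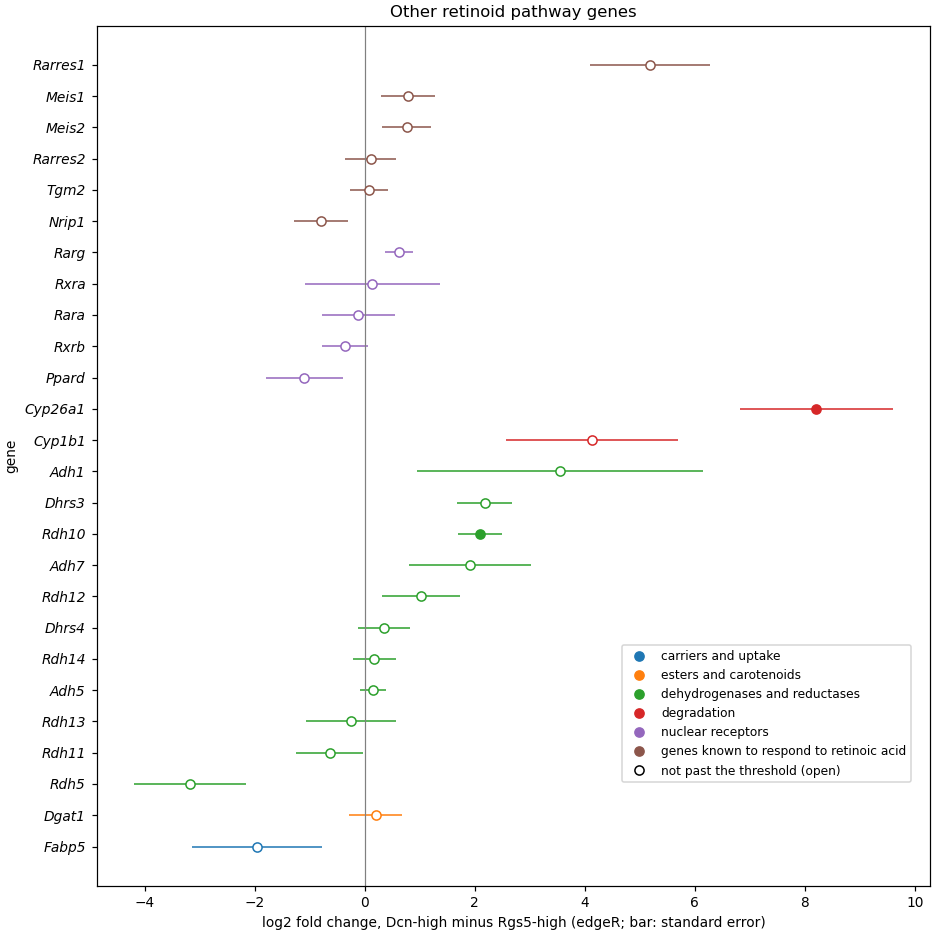
Log2 fold change (horizontal axis, Dcn-high minus Rgs5-high; bars, standard errors) of the 26 further pathway genes tested by edgeR, colored by list, filled where the adjusted p was under 0.05. Cyp26a1 (8.21) and Rdh10 (2.09) are filled, and all nuclear receptors are open.

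Trf-high cells shared part of this. Against Rgs5-high cells 3 of the 26 genes were called higher and 3 lower, where 5.04% of all genes were called higher and 7.78% lower, and against Dcn-high cells 2 higher and 3 lower, where 3.41% of all were called higher and 8.07% lower. Cyp26a1 was at 46.3 and 6.84 CPM in Trf-high cells (log2 fold change over Rgs5-high cells 8.83, SE 1.42), with an adjusted p of 0.018 in edgeR with Benjamini-Hochberg adjustment. Rdh12, a retinal reductase, was at 136.6 and 33.4 CPM in Trf-high, 3.35 and 4.25 CPM in Dcn-high and 2.45 and 2.11 CPM in Rgs5-high cells, and was called higher against both other classes (edgeR, Benjamini-Hochberg adjusted p = 0.018 against Rgs5-high and 0.033 against Dcn-high cells, the latter 0.069 with the tumor as a block). Rarres2, which encodes chemerin, fell from 86.7 and 225.9 CPM in Dcn-high and 201.3 and 151.4 CPM in Rgs5-high cells to 0.551 and 0.274 CPM, and Meis2, a homeobox factor, from 28.4 and 40.2, and 26.2 and 23.4, to 0.551 and 0.274 CPM. Their adjusted p in edgeR with Benjamini-Hochberg adjustment was 0.0036 for Rarres2 and 0.0045 for Meis2 against Dcn-high cells, and 0.0031 and 0.0053 against Rgs5-high cells. Rdh5, a retinol dehydrogenase, was called lower in Trf-high (0 and 4.92 CPM) than in Rgs5-high cells (80.2 and 68.4 CPM), with an adjusted p of 0.048 in edgeR (Benjamini-Hochberg) that was 0.098 with the tumor as a block. Against Dcn-high cells the same test also called Rarres1 lower (82.2 and 56.5 CPM to 0 and 3.56 CPM, adjusted p 0.04 in edgeR and 0.09 with the tumor as a block) and Tgm2, transglutaminase 2, higher (49.1 and 44.1 to 230.2 and 429.5 CPM, adjusted p 0.017). Tgm2 was also called higher against Rgs5-high cells, where it was at 61.9 and 46.8 CPM (edgeR, Benjamini-Hochberg adjusted p = 0.014). The Trf-high library of tumor 1 holds 1815459 reads in 7 wells, so that 1 read there is worth 0.551 CPM.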

How the data were processed

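The members and gene lists were chosen with earlier results of these data known. Per the methods of the study, the authors aligned single-end Smart-seq2 reads to mm10 with STAR and quantified RefSeq genes, and doublets were gated out at the sort; no doublet caller was run here. The deposited counts are whole reads per gene, without normalization, and the deposited RPKM values were scaled by the authors to the length of the gene model and the number of mappable reads. Both tables hold 24490 genes and 92 spike-ins, and 0 columns were left unused. Neither table has unique molecular identifiers, so intervals (exact binomial, 95%) and limits of a count of 0 (3 counts) cover counting error only. Levels used log2(RPKM + 1).

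Counts were summed per class and tumor and tested with edgeR 4.0.16 (TMM, quasi-likelihood, tested on simulated data), with DESeq2 1.42.0 as an alternative, in R 4.3.3. The simulated data had the same spread for every gene and changes only in well-read genes. They do not cover members with few reads or with most reads in a single well. Same-numbered libraries come from the same tumor; their deviations correlated with r 0.13 (Rgs5-high with Dcn-high), 0.073 (Rgs5-high with Trf-high) and -0.003 (Dcn-high with Trf-high). Named were all 9 members, of the other pathway genes (1 listed gene is not reported here) those called, up to 5 per comparison with the largest change, and the 3 genes most correlated with a member. The class gate, filters, depth, weights and normalization were varied. Coordinates and promoters are from RefSeq (GRCm38.p6). Smart-seq2 libraries do not mark strand, so reads of genes that overlap on opposite strands cannot be told apart.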

Additional observations from a re-analysis of the deposited data

Results flagged for a closer look

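The 40 wells without a class enter no comparison of the main fit. They are in the correlations over all 727 wells, and 25 of them join a class in the alternative with no margin. In these 40 wells 8 of the members were read above the limit of 3 reads that a count of 0 allows, which is 0.462 CPM over these wells. Summed over the 40 wells, Crabp1 was at 277.3 CPM with a read in 15 wells, Cyp26b1 at 84.5 CPM in 8, Aldh1a2 at 31.7 CPM in 5, Aldh1a1 at 15.4 CPM in 4 and Stra6 at 13.2 CPM in 2. Aldh1a3 was at 8.31 CPM in 1 well, Rbp4 at 6.46 CPM in 1 and Crabp2 at 3.38 CPM in 2. Rarb had 1 read. These sums rest on few wells: a single well held 82.1% of the Crabp1 reads, 79.6% of those of Aldh1a2, 96.5% of those of Stra6, 86.4% of those of Crabp2, 62% of those of Aldh1a1 and 41.7% of those of Cyp26b1.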

How the results depend on the processing

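The calls of Crabp1, Aldh1a2 and Stra6 against Rgs5-high and against Trf-high cells held in all 13 alternatives tested at 0.05, and kept their sign in each. At an adjusted p of 0.001, the threshold that the study used in another test over single cells, 0 of the 9 members were called in each comparison, and of all genes 0% and 0%, 0.0427% and 0.171%, and 0% and 0% were called higher and lower in Dcn-high against Rgs5-high, Trf-high against Rgs5-high and Trf-high against Dcn-high cells, with n = 2 tumors. DESeq2 called 6, 3 and 6 members, and 8.72% and 6.15%, 11.1% and 15.1%, and 10.3% and 15.1% of all genes higher and lower. Beyond the edgeR calls these were Rbp4, Aldh1a1 and Aldh1a3 in Dcn-high against Rgs5-high cells (DESeq2 adjusted p = 0.00042, 0.0029 and 9.2e-06). In Trf-high against Rgs5-high cells they were Rarb, Aldh1a1 and Rbp4 (0.0038, 0.02 and 0.039). In Trf-high against Dcn-high cells they were Aldh1a1, Aldh1a3 and Rarb (1.6e-06, 0.00045 and 0.0096). With the tumor as a replicate block, pairing libraries of the same tumor, 1 member was called in Trf-high against Rgs5-high cells and 3 and 3 in the others, and of all genes 2.01% were called higher and 0.990% lower in Dcn-high against Rgs5-high (3.81% and 2.07% without the block), 4.79% lower in Trf-high against Rgs5-high (7.78%) and 1.89% higher and 5.22% lower in Trf-high against Dcn-high cells (3.41% and 8.07%); beside the calls given above it changed no other named one. Spike-in totals as library sizes raised the median log2 fold change of all genes to 0.63 in Dcn-high and 0.52 in Trf-high against Rgs5-high cells and gave 8.80% and 13.7% of all genes as higher. Beside the block, which called Aldh1a2 as given above, a further member was called in edgeR in 3 settings: Aldh1a3 in Dcn-high against Rgs5-high cells with spike-in totals (Benjamini-Hochberg adjusted p = 0.041), and in Trf-high against Dcn-high cells Aldh1a1 with no filter on genes (0.027) and Aldh1a3 without cycling wells (0.045). Equal weight of wells gave 1.37% of genes as lower in Dcn-high against Rgs5-high cells, and leaving out Epcam wells 2.21% as higher in Trf-high against Dcn-high cells. Some fold changes that were not called turned sign: in Trf-high against Rgs5-high cells Crabp1 (2.55 with no margin), Crabp2 (-6.34 without cycling and -0.23 without Epcam wells), Aldh1a3 (-6.93 without cycling wells), Cyp26b1 (0.81 with classes from marker lists) and Stra6 (1.18 in DESeq2), and in Dcn-high against Rgs5-high cells Rarb (0.15 with spike-in totals). The cause was not tested. Thinned to 50000 reads, the mean percentage of wells moved by more than the SD of the tumors in Rgs5-high wells for Crabp1 (5.73), Rbp4 (0.224), Aldh1a2 (1.62) and Stra6 (0), and in Dcn-high wells for Crabp2 (4.76), Cyp26b1 (15.1), Rarb (5.95) and Stra6 (25.6). At 5 reads or more, the mean percentage of wells moved by more than the SD of the tumors in Rgs5-high wells for Crabp1 (0.399), Rbp4 (0), Aldh1a2 (0.798) and Stra6 (0), and in Dcn-high wells for Crabp2 (4.99), Cyp26b1 (14.8), Rarb (5.60) and Stra6 (24.02), and in Trf-high wells for Aldh1a2 (0). With no margin, the mean percentage of wells moved by more than the SD of the tumors in Rgs5-high wells for Crabp2 (0.617), and in Dcn-high wells for Crabp2 (7.64) and Rarb (7.64). With a pseudocount of 0.1, which lowers every well at 0 by construction, mean levels were, in Rgs5-high wells, -2.10 for Crabp1, -3.30 for Crabp2, -3.21 for Rbp4, -3.21 for Aldh1a1, -3.06 for Aldh1a2, -3.29 for Aldh1a3, -2.60 for Cyp26b1, -2.94 for Rarb and -3.30 for Stra6. In Dcn-high wells, -2.64 for Crabp2, -1.99 for Rbp4, -1.67 for Aldh1a1, 1.53 for Aldh1a2, -2.61 for Aldh1a3, -1.88 for Cyp26b1, -2.74 for Rarb and -1.02 for Stra6. In Trf-high wells, -2.08 for Crabp1, -2.63 for Crabp2, -2.71 for Rbp4, -3.32 for Aldh1a1, -2.83 for Aldh1a2, -3.16 for Aldh1a3, -2.52 for Cyp26b1, -3.32 for Rarb and -3.32 for Stra6. With at least 50000 reads the level of Aldh1a1 in Rgs5-high wells was 0.046. A tumor taken alone allows no test; in tumor 2, with 0 reads in Trf-high wells, the fold change of Crabp1 rests on the prior count. No value here separates tumor from plate, and the 27 Trf-high wells, 7 of them in tumor 1, limit every statement on members read there in few or no wells.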
